A study of Mus musculus with 6 samples.

Results

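The BCL2 family of death regulators was described in HT22 cells exposed to the small molecule AA147. HT22 is a line of immortalised mouse hippocampal cells that serves as a neuron model, and AA147 is known as an activator of the ATF6 stress pathway and of the oxidative stress regulator NRF2. The study holds 6 mRNA libraries of this line: 3 from cells given AA147, at 10 mM as the labels state it, and 3 from cells given the vehicle DMSO, all collected at 16 h. Growth medium and serum were common to both groups, and the labels name no genetic change. The members were 10 genes picked by symbol, and all 10 were among the 16472 genes of the authors' deposited table: the 4 survival members Bcl2, Bcl2l1, Bcl2l2 and Mcl1, the 2 effectors Bax and Bak1, and the 4 BH3-only members Bad, Bid, Bcl2l11 and Bbc3. Whether the libraries came from separate cultures is not given in the sources used here, so the p-values measure the spread between these libraries, which may be technical.

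The family controls whether the outer membrane of the mitochondrion is opened, the step at which cytochrome c escapes and the caspase proteases of apoptosis are switched on. The effectors BAX and BAK form the openings, the survival proteins hold them in check, and the BH3-only proteins carry stress signals by binding survival proteins or effectors. The contact is made by a short helix, the BH3 segment, which sits in a groove on the surface of the partner. Much of the control of this family acts on the proteins, through phosphorylation, cleavage and degradation, and mRNA levels do not measure it. Neurons are known to depend on Bcl-xL, the main product of Bcl2l1, and on MCL1 for survival.

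The stretch that encodes the BH3 segment is shown because it is the part that members of all 3 roles share. It was searched in the GENCODE M39 canonical transcripts on mouse assembly GRCm39 by the encoded pattern of leucine, any 3 residues, then glycine, alanine or serine, then aspartate, any residue, and last phenylalanine, isoleucine, leucine, methionine or valine. The pattern occurred exactly 1 time in each of 9 members and was not matched in Bcl2l2. It is not specific, since 12.1% of 22240 coding transcripts held it somewhere. Each line gives 30 bases, 5′ to 3′ on the coding strand, with capitals marking the codon of the leucine and the codons of the small residue and the aspartate.
Bcl2: accCTCcgccgggctGGGGATgacttctct
Bcl2l1: gcgCTGagagaggcaGGCGATgagtttgaa
Mcl1: accCTGcggcgcgtgGGCGACggcgtgcag
Bax: tgtCTCcggcgaattGGAGATgaactggac
Bak1: cagCTTgctctcatcGGAGATgatattaac
Bad: gagCTCcgaaggatgAGCGATgagtttgag
Bid: catCTCgcccaaataGGCGATgagatggac
Bcl2l11: gagCTGcggcggatcGGAGACgagttcaac
Bbc3: cagCTGcggcggatgGCGGACgacctcaac

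On GRCm39 the Bcl2 stretch lies at chr1:106640305-106640334 on the minus strand, in exon 1 of 2. That of Bcl2l1 is at chr2:152671617-152671646, minus strand, exon 2 of 3, and that of Mcl1 at chr3:95566744-95566773, plus strand, exon 1 of 3. The effector stretches are at chr7:45115421-45115450 for Bax (minus strand, exon 3 of 6) and chr17:27241505-27241534 for Bak1 (minus strand, exon 4 of 6). Among the BH3-only members, the stretch of Bad is at chr19:6928157-6928186 (plus strand, exon 2 of 3) and that of Bid at chr6:120874250-120874279 (minus strand, exon 4 of 6). Bcl2l11 has it at chr2:127989067-127989096 (plus strand, exon 3 of 4) and Bbc3 at chr7:16047695-16047724 (plus strand, exon 3 of 4). The submitters' processing notes name the older build mm9 for the counts, so these positions describe the sequences shown and not the counting.

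The authors' deposited table gives for each gene 1 mean normalized count over the libraries, 1 log2 fold change and its standard error (SE), so the value of a member in a single library, and whether its groups overlap, were not analysed here. The means in the authors' deposited table summed to 30768012, which stands for an average library once scaled by the authors, and the depth of single libraries is unknown. The table does not name the numerator, and a positive value is read here as higher with AA147. That reading rests on Nqo1, a classical NRF2 target, at 0.93 (SE 0.067) in the authors' deposited table. Hspa5, a classical ATF6 target, lay at -0.80 (SE 0.061), which on this reading is opposite to a rise from ATF6 activation. The other reading would turn every direction. As for cell identity, 6 of 20 neuron markers were among the genes of the table, with the highest means for Dlg4 at 1653 and Tubb3 at 1199. The marker means in this paragraph are not per transcript length, so they do not rank levels between genes. The remaining 14 neuron markers, Map2 and Rbfox3 included, were not analysed here. Of these 6, Tubb3 was called positive at 0.43 (adjusted p 5.67e-05). The other 5 had negative values without a call, from -0.15 for Dlg4 (SE 0.076) to -1.98 for Slc17a7 (SE 1.263). Only 4 of the 6 had an adjusted p, which Slc17a7 and Stmn2, with means of 3.93 and 6.24, did not have. The median of -0.37 over the 6 thus rests partly on genes with very low means in the authors' deposited table. There, the collagen genes Col1a1 and Col1a2, which mark mesenchymal cells, had means of 139176 and 254004 with fold changes of -1.52 and -0.97. Of the 22 markers of other cell types, 12 were in the table, 9 of them with an adjusted p. Among these 9, 1 was called positive and 4 negative, beside 9.05% and 11.1% of all genes. The positive one was Csf1r at a mean of 48, and the negative ones were Col1a1, Col1a2, Col3a1 and Pdgfrb. Vim at -0.08 and Thy1 at -0.03, from the same list, were not called. The part of these marker differences in the values of the family was not tested.

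Levels can be compared between genes only per length, and the mean normalized count per kilobase (kb) of canonical transcript ran over a wide range within the family. Bax, an effector, was highest at 7842 per kb, above 99% of the 13502 genes with a known length. Bak1, the other effector, followed at 2696 per kb, and both effectors thus stood above every survival member. The survival members Bcl2l1 and Mcl1 had 1716 and 1169 per kb, and Bad, a BH3-only member regulated by phosphorylation, had 1106. The remaining BH3-only members were lower, at 213 for Bid, 116 for Bbc3 and 37.9 for Bcl2l11. Bcl2l2 had 56.1 per kb, and Bcl2, the founding gene of the family, was the lowest at 5.38, above 13.7% of genes. In these cells the survival transcripts therefore consisted mostly of Bcl2l1 and Mcl1. The spread of these levels over libraries was not analysed here, so close neighbours in the order, such as Mcl1 and Bad, are not separated by it, and the order also depends on the transcript taken as canonical.

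**Figure D1:**
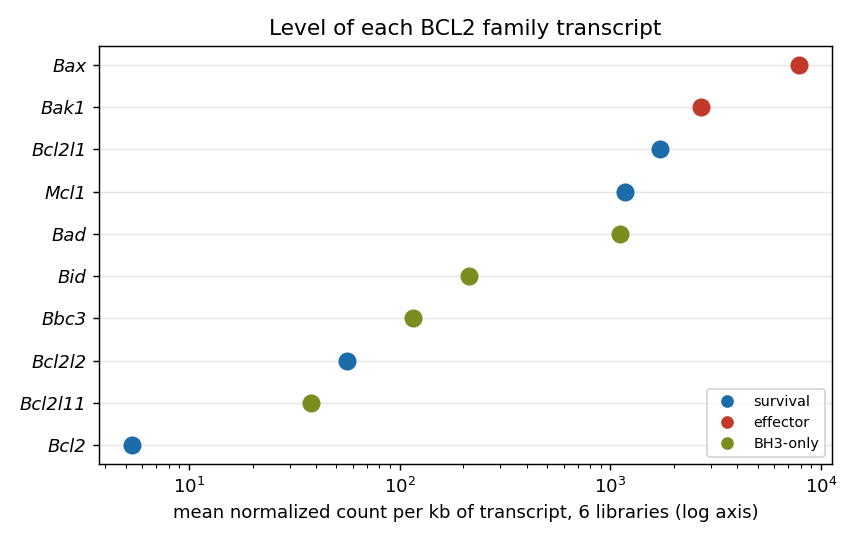
Mean normalized count per kb of canonical transcript over the 6 libraries (log axis) for each of the 10 members, coloured by role, with no error because the table holds 1 mean per gene. The effectors Bax and Bak1 are at the top, Bcl2l1, Mcl1 and Bad lie between 1106 and 1716 per kb, and Bcl2 is at the bottom with 5.38.

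Among the 4 survival members, Bcl2l1 was the one with an adjusted p under 0.05, a threshold that 20.2% of all tested genes passed. It encodes the mitochondrial guardian Bcl-xL and, by alternative splicing, the short form Bcl-xS, which has the opposite effect. Its mean was 5602 normalized counts in the authors' deposited table, and with 3 libraries per group the fold change taken at face value places the groups at 6086 with vehicle and 5117 with AA147. The log2 fold change was -0.25 (SE 0.068, DESeq2 adjusted p 0.00236, n = 3 per group), as the authors' deposited table lists it. On the reading used here, Bcl2l1 mRNA thus fell by 15.9%, with a 95% interval from the standard error of -23.3% to -7.79%. Fewer cells that express a gene and less RNA per cell cannot be told apart in such bulk libraries, and neither can the splice forms of a gene in a value per gene. The change is small: by construction, an estimate of -0.25 loses its call with an added limit of 0.5 on the absolute log2 fold change. That limit was passed by 5.85% of genes. The same holds against a null interval of 0.25. The call was also lost with a Bonferroni adjustment, which bears on the p-value and not on the size of the change.

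The other survival members were not called. Mcl1, whose protein is short-lived, had a mean of 4080 and a log2 fold change of 0.02 (SE 0.066, adjusted p 0.876), as the authors' deposited table lists it. Its interval runs from -7.22% to 11.1%. Bcl2l2, which encodes Bcl-w, had a mean of 248 and a value of 0.27 (SE 0.158, adjusted p 0.248), as the authors' deposited table lists it, the highest point estimate of the family. Its interval runs from -0.04 to 0.58 on the log2 scale, so a rise of up to 49.2% is compatible with it. Bcl2 had nearly the same point estimate as Bcl2l1, -0.25, but at a mean of 39 its SE was 0.357 (adjusted p 0.701), as the authors' deposited table lists it. With that SE, Bcl2 would have needed a rise of 89.2% or a fall of 47.1% to be called, whereas rises of 12.9% and 12.6% would have sufficed for Bcl2l1 and Mcl1.

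Neither effector was called. Bax, which moves from the cytosol to mitochondria when activated and is a known p53 target, had a mean of 7654 and a log2 fold change of -0.03 (SE 0.067, adjusted p 0.805), as the authors' deposited table lists it. The interval for Bax runs from -10.7% to 7.14%. Bak1, whose protein resides in the outer membrane, had a mean of 6435 and a value of 0.14 (SE 0.064) in the authors' deposited table. Its unadjusted p of 0.0352 became 0.126 after adjustment over all genes by DESeq2 in the authors' deposited table, and its interval reaches from a rise of 0.651% to one of 19.9%. With a trend on transcript length, GC content and mean expression subtracted, the value of Bak1 was 0.19 and passed (adjusted p 0.0196), and that of Bax turned to 0.07 without a call (adjusted p 0.511).

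**Figure D2:**
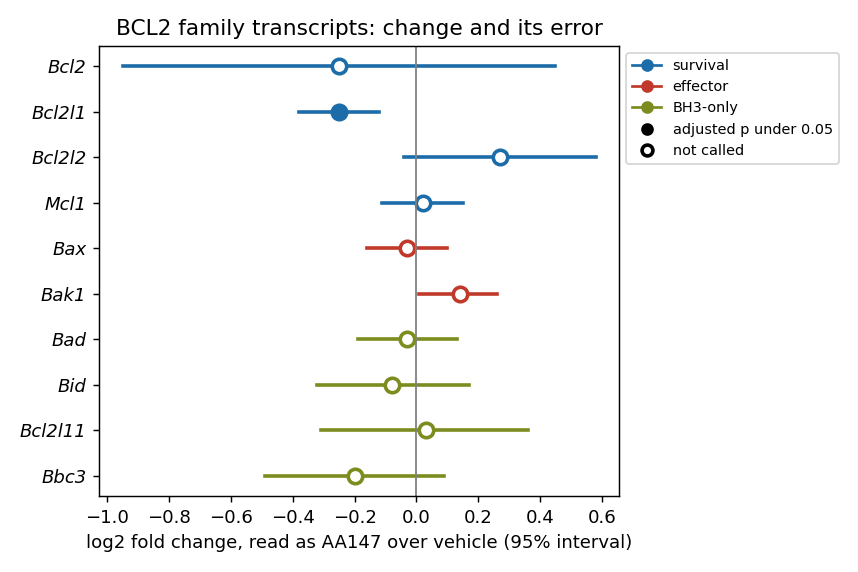
Log2 fold change of each member, read as AA147 over vehicle (points), with the 95% interval from the authors' standard error (lines), coloured by role, with filled points for an adjusted p under 0.05. Bcl2l1 at -0.25 is filled, Bak1 at 0.14 has an interval just above 0 but an open point, and Bcl2 has the widest line.

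The balance of survival members to effectors was compared through the difference of their log2 fold changes, for all 8 pairs. Errors were combined as if the genes were independent, which the table does not allow to be checked, and the intervals are not adjusted for the 8 pairs. Relative to Bak1, Bcl2l1 moved by -0.39 on the log2 scale (SE 0.094, 95% interval from -0.57 to -0.20), a ratio at 0.766 of its level in the other group. Relative to Bax, it moved by -0.22 (SE 0.096, interval from -0.41 to -0.03), a ratio of 0.86. These were the 2 of 8 pairs whose interval left out 0. Both hold Bcl2l1, the 1 called member, so they are not separate from its call. The share of such intervals among pairs of other genes was not computed. For Mcl1 the differences were -0.11 against Bak1 (interval from -0.29 to 0.07) and 0.05 against Bax (interval from -0.13 to 0.24), and for Bcl2l2 they were 0.13 and 0.30. The intervals of Bcl2, from -0.93 to 0.49 against Bax and from -1.10 to 0.33 against Bak1, are too wide to show a shift of moderate size.

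The BH3-only members, which start the process, had 0 calls among 4, and 0 of them had an unadjusted p under 0.05, beside 20.2% and 26.1% of all genes. With 4 genes, counts of 0 do not set them apart from that background. Bad, the member that growth factor kinases inactivate, was measured best, with a mean of 1314 and a log2 fold change of -0.03 (SE 0.081, adjusted p 0.88), as the authors' deposited table lists it. Its interval runs from -12% to 9.68%. Bid, which caspase-8 cleaves to link death receptors to mitochondria, had a mean of 470 and a value of -0.08 (SE 0.123, adjusted p 0.745), as the authors' deposited table lists it. Bcl2l11, which encodes BIM, had a mean of 191 and a value of 0.03 (SE 0.171, adjusted p 0.945), as the authors' deposited table lists it. Bbc3, which encodes the p53 target PUMA, had a mean of 311 and a value of -0.20 (SE 0.149, adjusted p 0.396), as the authors' deposited table lists it, the lowest of this role. To be called, these 3 less abundant transcripts would have needed estimated rises of 24.6%, 35.8% and 30.4%, or falls of 19.7%, 26.3% and 23.3%. Smaller estimates would not have been called at these standard errors.

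Over the family, 0 members were called positive and 1 negative among 10. In the authors' deposited table, 20.2% of the 13597 genes with an adjusted p were called, 9.05% positive and 11.1% negative. Among the genes with a mean from 1000 to 10000 the share was 27.3%. Of the members, only Bcl2l1, Mcl1, Bax, Bak1 and Bad lie in that range. An unadjusted p under 0.05 was listed for 2 members, Bcl2l1 and Bak1, and for 26.1% of all genes in the authors' deposited table. The share of called members, 10%, is thus below the 20.2% of genes with an adjusted p, on a number too small to set the family apart. The median log2 fold change was -0.03 over the members and 0.01 over all genes with an adjusted p, and the median absolute value was 0.11 against 0.16. By role the medians were -0.11 for survival members, 0.05 for effectors and -0.05 for BH3-only members. Signs were mixed within the survival members and the effectors, and 3 of 4 BH3-only members had a negative sign without a call. The standard errors of the members were 0.97 to 1.08 times the median of the 200 genes nearest in mean, so the family was measured about as precisely as other genes of its abundance.

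**Figure D3:**
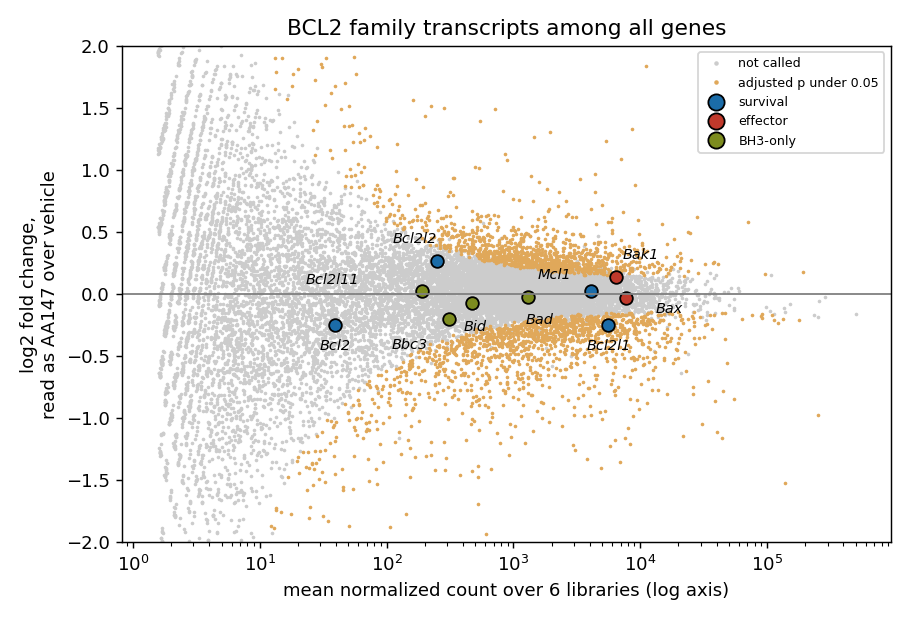
Log2 fold change (read as AA147 over vehicle) against the mean normalized count (log axis) for all genes of the table, with called genes in orange and the 10 members as large points coloured by role, and with 430 genes beyond 2 on either side outside the axis. Bcl2l1 at -0.25 lies in the called band, and the other 9 members lie in the band of genes that were not called.

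Exons that overlap another gene on the opposite strand matter here because the libraries were not stranded, and same-strand overlaps matter in any library. In the GENCODE M39 annotation, 8 of the 10 members shared exonic bases with another gene, and Mcl1 and Bbc3 did not. Shares given here are over the exonic bases of all annotated transcripts of a member. The overlap was largest for Bid, of whose exonic bases 31.2% are also exonic in its family relative Bcl2l13 on the opposite strand. Of the 2202 bases of the canonical Bid transcript, 1356 aligned at 100% identity with Bcl2l13. Likewise aligned were 193 of 976 bases of Bax with Gm45808, 476 of 3265 of Bcl2l1 with Gm74855, and 595 of 4425 of Bcl2l2 with Gm20521. Bcl2l13, a mitochondrial protein linked to mitophagy, had a mean of 1614, where Bid had 470. Its log2 fold change was 0.08 (SE 0.078, adjusted p 0.524), as the authors' deposited table lists it. How far reads of Bcl2l13 enter the level or fold change of Bid was not tested. Bad shares 25.2% with the opposite-strand lncRNA Gm56656, which was not analysed here. It also shares 20.4% with Gpr137 on that strand, whose value was 0.00 (SE 0.107), and Bak1 shares 18.2% with Ggnbp1, whose mean was 28.4, in the authors' deposited table. For Bcl2l1, 9.27% of exonic bases are shared with the opposite-strand lncRNA Gm74855, which was not analysed here. On the same strand, Bcl2l2 shares 11% with Gm20521, Bax 10.3% with Gm45808 and Bcl2l11 0.682% with Gm74510, and these partners were not analysed here. How the authors' counting assigned reads in such stretches is not given in the sources used here.

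Beyond the 10 members, 18 further relatives were listed, and 10 of them were in the authors' deposited table, 8 with an adjusted p. Of these 8, 0 were called in either direction and 0 of the 10 had an unadjusted p under 0.05, beside 20.2% and 26.1% of all genes, with a median of 0.06 beside 0.01. As examples chosen after their values were seen, Bok, an effector-like relative, had a value of -0.04 (SE 0.095) at a mean of 759 in the authors' deposited table. Bmf, a BH3-only gene, had -0.37 (SE 0.372) at a mean of 48 in the authors' deposited table. The remaining 8 relatives, among them the p53 target Pmaip1, were not analysed here.

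Downstream of the family, 0 of 10 genes of the apoptosome and caspases were called, beside 20.2% of all genes. Of the 10, 9 had a positive sign, beside 51.7% of genes with an adjusted p, and this difference was not tested. Without adjustment, 3 of the 10 had a p under 0.05, near the 26.1% of all genes. These 3 were Cycs, the cytochrome c gene, at 0.33 (SE 0.133, adjusted p 0.0652), Casp6 at 0.23 (SE 0.095, adjusted p 0.0672) and Apaf1, the scaffold of the apoptosome, at 0.17 (SE 0.084, adjusted p 0.132), as the authors' deposited table lists it, chosen after their values were seen. Their list had a median of 0.09. Among the caspase inhibitors and their antagonists, 0 of 7 were called and 2 had an unadjusted p under 0.05. These were Birc5, which encodes survivin, at 0.16 (adjusted p 0.0912) and Htra2, a mitochondrial protease, at -0.16 (adjusted p 0.0632), as the authors' deposited table lists it, likewise chosen after their values were seen. Of the death receptors and their adaptors, 0 of 9 were called and 0 had an unadjusted p under 0.05, with a median of 0.01.

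A list of 13 partners of the family at the mitochondrion also holds genes whose proteins reside elsewhere. Of these 13, 3 were called positive and 1 negative, beside 20.2% of all genes called in either direction. Among the genes with a mean from 1000 to 10000 the share was 27.3%, but Mtch1, Tmbim6 and Vdac3 lie outside that range. With 13 genes, the count does not set the list apart. Mtch1, an outer membrane protein, had the largest difference, -0.73 (SE 0.070, adjusted p 2.95e-23) with a mean of 10222, as the authors' deposited table lists it. On the reading used here its mRNA fell by 39.6%. The positive calls were small in the authors' deposited table: Opa1, which fuses the inner membrane and shapes its folds, at 0.21 (adjusted p 0.0134), and Vdac2, the channel that recruits BAK and BAX, at 0.19 (adjusted p 0.0333). The call of Vdac2 was lost with fold changes centred on abundant genes, at 0.17 (adjusted p 0.0531). The third was Dnm1l, the fission enzyme DRP1, at 0.17 (adjusted p 0.0222), as the authors' deposited table lists it, named after its value was seen. The median of this list was 0.07.

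Of the transcription factors known to act on BH3-only genes, 0 of 7 were called positive and 1 negative, beside 9.05% and 11.1% of all genes. Egr1, an immediate early gene, was at -0.77 (SE 0.128, adjusted p 5.72e-08), as the authors' deposited table lists it. Another 3 were chosen after their values were seen. Trp53, which drives Bbc3 and Bax, was at 0.14 (SE 0.072, adjusted p 0.187), and Foxo3, which drives Bcl2l11 and Bbc3, at -0.15 (SE 0.104, adjusted p 0.36), as the authors' deposited table lists it. Ddit3, the stress factor CHOP, was at 0.07 (SE 0.118, adjusted p 0.765). These 3 were not called.

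A list of 18 kinases, phosphatases, ligases and adaptors holds genes that act on family proteins or, for Mdm2, on p53. Of these 18, 3 were called positive and 1 negative, which is close to the 20.2% of all genes that were called. The median of the list was -0.01. Ppp3ca, a catalytic subunit of calcineurin, the phosphatase that can activate BAD, was at -0.88 (SE 0.053, adjusted p 3.07e-59) with a mean of 11358, as the authors' deposited table lists it. On the reading used here its mRNA fell by 45.7%, while that of Bad, its substrate, was not called. Pim1, a kinase that phosphorylates BAD, was at 0.73 (SE 0.168, adjusted p 0.000192), and Mdm2, the ligase that removes p53, at 0.42 (SE 0.067, adjusted p 1.35e-08), as the authors' deposited table lists it. Usp9x, which removes ubiquitin from MCL1 and is named after its value was seen, was at 0.36 (SE 0.098, adjusted p 0.00208), as the authors' deposited table lists it. Huwe1, the ligase that marks MCL1 for degradation, likewise named after its value was seen, had a value of -0.10 with an SE of 0.227 at a mean of 29787 in the authors' deposited table.

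**Figure D4:**
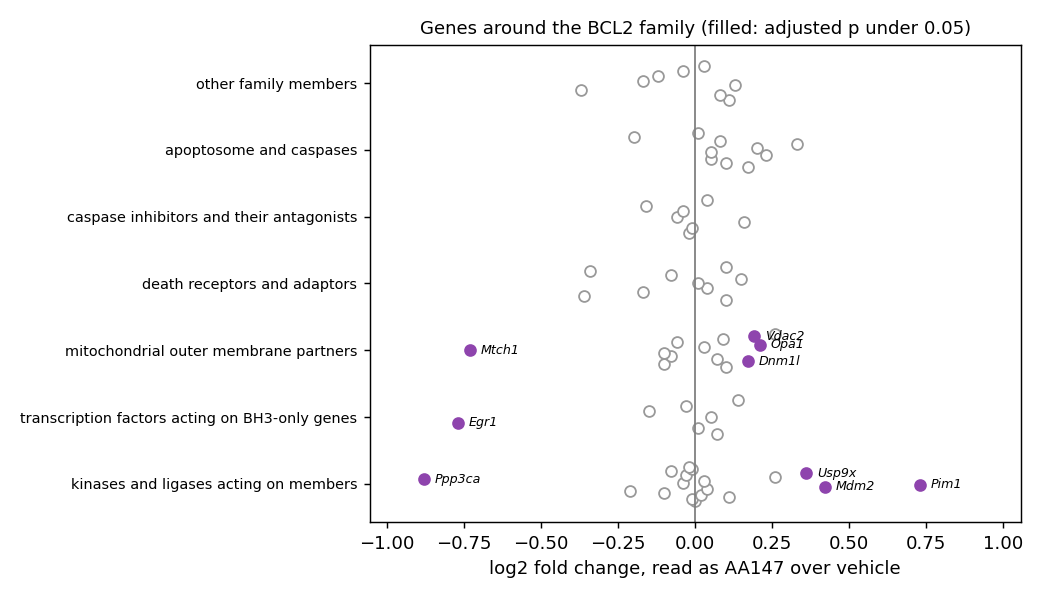
Log2 fold change (read as AA147 over vehicle) of each gene with an adjusted p in the 7 lists around the family, 1 row per list, with filled and named points for an adjusted p under 0.05 and open points for the rest. Ppp3ca, Egr1 and Mtch1 lie between -0.88 and -0.73, Pim1 lies at 0.73, and the lists of other family members, caspases, inhibitors and death receptors have open points only.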

How the data were processed

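Per the labels' protocols, column-purified total RNA of HT22 cells was sequenced as non-stranded mRNA libraries, 3 per group. The submitters' processing notes name DESeq2 and the build mm9, and the aligner, counter and annotation are not given in the sources used here. The authors deposited, per gene, a mean normalized count (a signal, not whole reads), a log2 fold change with its standard error, a score (the Wald statistic), and p-values before and after adjustment. The deposited statistic equalled the fold change over its standard error (largest difference 3.06e-07), and the adjusted p a Benjamini-Hochberg adjustment over 13597 genes. The other 2875 genes, with means up to 8.41, stayed without a call. A count-based refit could not be made from 1 line per gene, so the deposited adjusted p under 0.05 is the test.

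The members and gene lists were chosen with earlier results of these data known. In the text, all members are named, and from each other list up to 2 called genes per direction with the largest fold changes and a mean of at least 100; any other gene was chosen after its values were seen. Intervals of 95% come from the standard error, and the change needed for a call from the largest unadjusted p among called genes, 0.00999. Alternatives were other thresholds, adjustments, limits on the mean, centrings and a trend on length, GC content and mean over 9620 genes. Transcripts, overlaps and sequences came from GENCODE M39, with the 9 printed stretches checked against the GRCm39 genome, and all 10 symbols were found in RefSeq. The code was tested on simulated data. Python 3.11.15, pandas 2.3.3, SciPy 1.17.1, statsmodels 0.14.6 and BLAST 2.17.0 were used.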

Additional observations from a re-analysis of the deposited data

How the results depend on the processing

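No paired analysis was possible because each gene has 1 line for both groups together; leaving out replicates and other normalizations were not run for the same reason. The count of 2741 called genes became 1818 at a threshold of 0.01, 774 by Bonferroni, 796 with a minimum absolute log2 fold change of 0.5 and 542 for a null interval of 0.25, each stricter by construction. Under the last 3 of these, the 1 called member, Bcl2l1, was lost, which left 0. It kept its call under the other 6 alternatives, with adjusted p from 0.00121 to 0.0128. The 4 calls among mitochondrial partners became 1 under each of the 4 stricter settings, and the 4 among kinases and ligases became 2 with Bonferroni or the fold limit and 1 against the null interval. Centring on abundant genes, a shift of 0.01, gave 1 call, the negative one of Htra2, in place of 0 among caspase inhibitors and their antagonists, and 3 in place of 4 among mitochondrial partners, where Vdac2 was lost. With the trend subtracted, the median of survival members was 0.02 in place of -0.11, but Bcl2 had no value there because its mean was under 100. Without Bcl2 the median is the value of Mcl1, which was 0.02 before and after subtraction, so the move reflects the missing Bcl2. Subtracting the trend moved the median of effectors from 0.05 to 0.13. It reversed the uncalled values of Bax to 0.07, Bad to 0.03 and Bcl2l11 to -0.01, and gave Bak1 a call; the cause was not tested. No member moved by more than 0.10 under centring or the trend. The depth of single libraries is unknown; of the members, Bcl2 had the largest standard error.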
